A study of Mus musculus with 8 samples.

Results

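The 7 genes described here, Ttr, Otx2, Folr1, Kl, Aqp1, Clic6 and Enpp2, are known as markers of the epithelium of the choroid plexus. They were taken as a list of gene names, and the fragments of the RefSeq transcripts of each were summed in every library. They are 7 of the 23523 features that the table gave after summing, and all 7 were present. The libraries came from 3 normal mouse brain samples (brains 1 to 3) and 5 mouse glioblastomas (tumours 1 to 5). The glioblastomas were raised with a lentivirus that encoded HrasG12V, an activated form of the small GTPase Hras, together with an shRNA against p53. They were taken at the clinical endpoint, and GFP+ tissue was freed of surrounding normal brain under a dissecting microscope. The sources used here do not give the strain, the age, the brain region or the cell type that the virus entered. The labels do not state whether each sample was taken from its own animal, and the p-values therefore measure only the spread between these samples.

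The choroid plexus is a folded sheet of epithelial cells around a vascular core that hangs in the brain ventricles. It secretes cerebrospinal fluid, makes the carrier protein transthyretin in large amounts, and moves folate, ions and water between blood and fluid. Some of its genes are also used elsewhere: Enpp2 is made by oligodendrocytes, Kl by some neurons, and Aqp1 by some endothelial cells and by red blood cells.

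Between 5490356 and 15564279 fragments were assigned per library. Levels are given as CPM, the fragments of a gene relative to the library total after scaling with TMM factors, and a single library's 3 fragments were worth 0.175 to 0.541 CPM. Hras, the gene of the oncogene, was higher in every tumour (327 to 479 CPM) than in any brain (94.2 to 103 CPM), with a log2 fold change of 2.05 ± 0.19 (SE) and an edgeR adjusted p of 1.9e-05. Trp53, the target of the hairpin, lay between 2.74 and 5.92 CPM in the tumours and between 4.74 and 7.21 CPM in the brains, and the difference did not pass the test (log2 fold change -0.46 ± 0.35 (SE), edgeR adjusted p = 0.262). Markers of cortex and hippocampus were present in all 3 brains, with a summed level of 1327 to 1444 CPM. Of the hypothalamus markers, Avp and Oxt had 0 fragments in all 3 brains, while Pomc had 6, 28 and 8 and Trh 10, 4 and 11. The cerebellum markers summed to 1311 to 1913 CPM in the brains, most of it from Itpr1 (1066 to 1741 CPM), and included Calb1 (120 to 191 CPM) and Cbln1 (6.43 to 14.2 CPM), while Pcp2 had 0 fragments.

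Brain 1 stood apart from the other brains in the choroid plexus genes. Each of the 7 genes was highest among the brains in brain 1. Relative to brains 2 and 3 pooled, Ttr was 40.3 times as high in brain 1, with an exact 95% interval of 36.7 to 44.3 that covers counting error only. The ratio was 11.9 (6.48 to 23.5) for Aqp1, 9.77 (5.93 to 16.8) for Folr1 and 7.78 (5.62 to 10.95) for Clic6. It was 4.30 (2.52 to 7.51) for Otx2, 4.03 (3.88 to 4.19) for Enpp2 and 2.91 (2.41 to 3.50) for Kl. The genes were therefore raised in brain 1 by unequal factors, and every interval lay above 1. Over 12854 genes with at least 20 fragments in the highest brain the median ratio was 0.993, and 26 genes, 0.202%, had a ratio of at least 4. Of the 7 genes, 6 were among those 26, with Ttr in place 2, Aqp1 in place 8 and Folr1 in place 10 of all 12854. The 7 genes were chosen when earlier results of these data had already shown that the brains differ in them. Their places among all genes therefore only describe that difference. Brain 1 is 1 library with no replicate, so these ratios have no test. The comparison of each of the 7 genes below is given with and without it, and so are the counts of gene lists that change without it.

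Of a list of 25 further choroid plexus genes, 20 had enough fragments for this ratio, and 9 of the 20 had a ratio of at least 4, with a list median of 2.87. These were Cldn2 at 39.4, a tight junction protein, Tmem72 at 29.6, the bicarbonate transporter gene Slc4a5 at 22.9, the potassium channel subunit gene Kcne2 at 13.9, and the coagulation factor gene F5 at 10.8. Ecrg4 had a ratio of 7.43, the potassium channel gene Kcnj13 6.33, the prolactin receptor gene Prlr 5.15 and the secreted antagonist gene Sostdc1 4.98. Others of the list had a ratio below 1, among them the serotonin receptor gene Htr2c at 0.660 and Cldn1 at 0.553. Of the 20 lists of other cell types, regions and pathways, none had a gene at or above 4. Median ratios were 1.996 for mature oligodendrocyte markers, 1.49 for ependymal cell markers, 3.32 over 3 red blood cell markers and 0.322 for meningeal and fibroblast markers. For brain regions they were 1.04 for cortex and hippocampus, 1.37 for thalamus and 1.68 for striatum. The part of any of these lists in the level of the 7 genes was not tested.

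**Figure D1:**
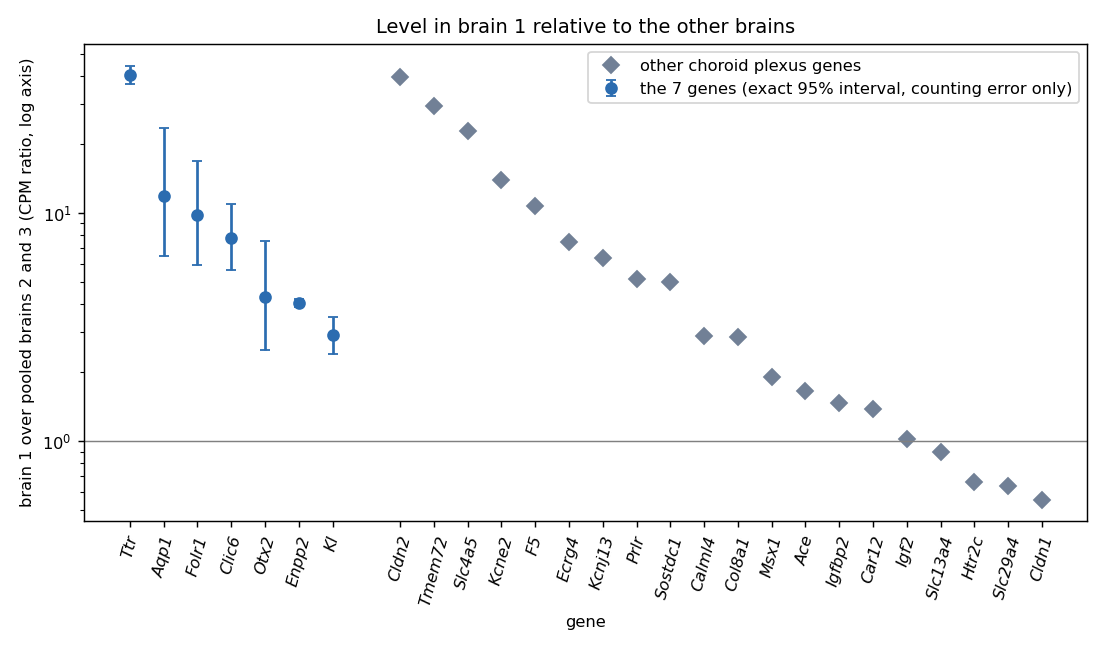
Ratio of the CPM in brain 1 to the pooled CPM in brains 2 and 3 (vertical log axis) for each of the 7 genes (circles, with exact 95% intervals for counting error) and for 20 further choroid plexus genes (diamonds). All 7 circles lie above the line at 1, from 2.91 for Kl to 40.3 for Ttr, and the diamonds run from 0.553 for Cldn1 to 39.4 for Cldn2.

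The comparison of the groups asked how the level of these genes in glioblastoma differed from that in normal brain. In bulk tissue, fewer cells of a type and less RNA per cell cannot be told apart. With all 8 libraries, 5 of the 7 genes were lower in glioblastoma (Kl, Folr1, Otx2, Enpp2 and Clic6), Aqp1 was higher, and Ttr did not pass the test (edgeR, adjusted p below 0.05). Of all 14641 genes tested, 33.9% were called lower and 37.1% higher. Without brain 1, Kl and Enpp2 were still lower and Aqp1 higher, and the other 4 were not called. In that fit 29.9% of 14924 genes were called lower and 32.5% higher. The groups did not overlap for Kl and Enpp2, which were lower in every tumour than in any brain, nor for Aqp1, which was higher in every tumour. Of all genes tested, 34.5% had lower and 36.1% had higher values in this sense. The median log2 fold change of the 7 genes was -2.79 with all libraries and -1.31 without brain 1, against 0.06 and 0.07 over all genes tested.

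All 7 genes passed the filter on low counts, which asked for about 10 fragments per median library in at least 3 samples. Ttr, Clic6, Aqp1 and Enpp2 reached that level in at least 3 tumours. Folr1, Kl and Otx2 reached it in 1 tumour each and could not have passed through the tumours alone. Kl reached it in all 3 brains. Folr1 and Otx2 reached it in 2 brains and passed only together with their 1 tumour.

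**Figure D2:**
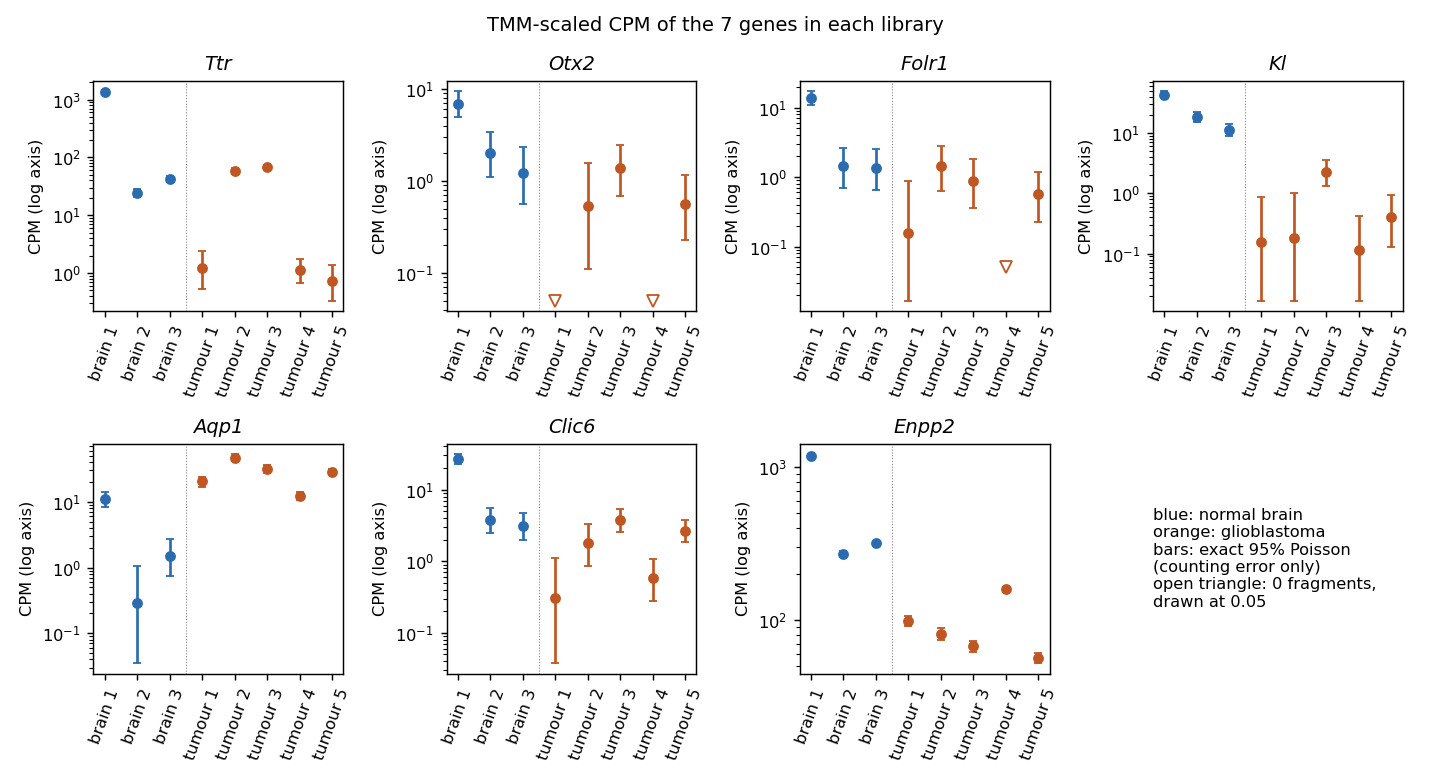
TMM-scaled CPM (vertical log axes, 1 panel per gene) in each brain (blue) and tumour (orange), with exact 95% Poisson intervals for counting error and open triangles for 0 fragments. Brain 1 is the highest brain in all 7 panels, the tumours lie below every brain for Kl and Enpp2, and they lie above every brain for Aqp1.

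Ttr encodes transthyretin, the secreted carrier of thyroxine and of retinol-binding protein, and is the gene by which choroid plexus is most often recognised. Its level was 1350, 24.0 and 42.5 CPM in brains 1, 2 and 3, and 1.24, 58.3, 69.1, 1.11 and 0.727 CPM in tumours 1 to 5. Tumours 2 and 3 lay above brains 2 and 3, tumours 1, 4 and 5 lay more than an order of magnitude below them, and the groups overlapped. The tumours' highest level was 94.97 times their lowest, a spread that 0.184% of 14158 genes reached, where the median gene had 1.92. The log2 fold change was -4.19 ± 1.77 (SE, 3 brains and 5 tumours) with an edgeR adjusted p of 0.0596, which misses the threshold. Without brain 1 it was -0.36, with a 95% interval of -4.24 to 3.52 and an edgeR adjusted p of 0.861.

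Otx2 encodes a homeodomain transcription factor that choroid plexus epithelium needs to form and to be maintained. It had 41, 14 and 9 fragments in brains 1 to 3 and 0, 3, 11, 0 and 7 in tumours 1 to 5. On the CPM scale these were 6.94, 2.02 and 1.23 in the brains and 0, 0.541, 1.39, 0 and 0.566 in the tumours. Tumour 3 lay above brain 3, so the groups overlapped. Tumours 1 and 4 had no fragment, and their exact 95% intervals for counting error reached up to 0.572 and 0.215 CPM. Otx2 fell in glioblastoma by 2.79 ± 1.03 (SE) on the log2 scale, with an edgeR adjusted p of 0.0371. Without brain 1 the fold change was -1.73 (95% interval -4.49 to 1.02, edgeR adjusted p = 0.231). The call was also lost without brain 2 (-3.05), tumour 1 (-2.51), tumour 2 (-2.83) or tumour 5 (-2.88), with edgeR adjusted p values of 0.0578, 0.0636, 0.0607 and 0.0637.

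Part of the Otx2 fragments of brain 1 was placed on a transcript that took none in the remaining libraries. In the estimated counts that the authors split between transcripts, 64.2% of the Otx2 fragments of brain 1 went to a transcript with a distal start and 35.7% to one with a start 2409 bases nearer. In the other 5 libraries with Otx2 fragments, the transcript with the nearer start took 99.9% or more after rounding. That transcript held an estimated 14.6 fragments in brain 1 and 14.0 in brain 2. With 41 fragments or fewer per library and no replicate of brain 1, this difference has no test. Nor was such a shift particular to Otx2. For Folr1, 1 transcript took 11.3% of the fragments in brain 1 and 0 in brains 2 and 3. Another took 87.3% of them in brain 1 and 0 in tumours 1 and 5. The 250 bases before both Otx2 starts are shown because these starts are where the libraries differed for Otx2. They are RefSeq sequence of GRCm38.p6, 5′ to 3′ on the minus strand, at chr14:48667509-48667758 for the distal and chr14:48665110-48665359 for the nearer start, a build other than the mm9 of the counts. Capitals mark TAATCC, the sequence that Otx factors prefer, on either strand (GGATTA on the other), which does not overlap the other motif searched, GGGCGG.
Otx2, distal start: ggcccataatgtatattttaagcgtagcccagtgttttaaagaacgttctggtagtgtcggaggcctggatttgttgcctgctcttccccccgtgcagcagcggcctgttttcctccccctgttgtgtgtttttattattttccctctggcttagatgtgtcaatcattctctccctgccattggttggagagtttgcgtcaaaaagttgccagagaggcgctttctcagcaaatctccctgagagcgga
Otx2, nearer start: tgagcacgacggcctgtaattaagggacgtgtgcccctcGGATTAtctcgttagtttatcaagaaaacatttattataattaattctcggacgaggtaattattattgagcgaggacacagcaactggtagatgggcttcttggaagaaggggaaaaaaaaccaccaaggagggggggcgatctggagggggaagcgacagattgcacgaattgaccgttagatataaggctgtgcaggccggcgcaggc
The nearer window held 1 TAATCC, on the other strand, beginning 211 bases before the start, and the distal window held none. Among 32851 windows of 250 bases before the starts of 27025 genes, 6.25% held TAATCC on either strand. The nearer RefSeq start lay 3 bases from that of the transcript in the annotation, and the distal one lay 7 bases from it.

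Folr1 encodes the alpha folate receptor, through which choroid plexus epithelium carries folate into the cerebrospinal fluid. Its level was 13.7, 1.44 and 1.36 CPM in brains 1 to 3 and 0.155, 1.44, 0.882, 0 and 0.566 CPM in tumours 1 to 5. Brains 2 and 3 rested on 10 fragments each and no tumour held more than 8. Tumour 2 was level with brains 2 and 3 and the other tumours lay below them. Folr1 fell in glioblastoma by 3.29 ± 1.10 (SE) on the log2 scale with an edgeR adjusted p of 0.0246. Without brain 1 the difference was -1.31 (95% interval -3.86 to 1.23, edgeR adjusted p = 0.322) and was not called. Without tumour 1 (-3.07) or tumour 5 (-3.30) the edgeR adjusted p was 0.0536 and 0.0503.

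Kl encodes klotho, a membrane protein that acts as a co-receptor for the hormone Fgf23. Its level was 43.0, 18.5 and 11.3 CPM in brains 1 to 3 and 0.155, 0.180, 2.27, 0.116 and 0.404 CPM in tumours 1 to 5. Every tumour lay below every brain, and tumour 3, with 18 fragments, lay above the other tumours, which held 1 to 5. Kl fell in glioblastoma by 5.31 ± 0.85 (SE) on the log2 scale with an edgeR adjusted p of 0.000541. Without brain 1 it fell by 4.59 (95% interval -6.72 to -2.46, edgeR adjusted p = 0.00342). The region before the Kl start is shown because Kl was one of the genes called lower with and without brain 1. It lies at chr5:150952357-150952606 on the plus strand (RefSeq, GRCm38.p6, 5′ to 3′), and capitals mark GGGCGG, the GC box bound by Sp factors, or its other strand CCGCCC.
Kl: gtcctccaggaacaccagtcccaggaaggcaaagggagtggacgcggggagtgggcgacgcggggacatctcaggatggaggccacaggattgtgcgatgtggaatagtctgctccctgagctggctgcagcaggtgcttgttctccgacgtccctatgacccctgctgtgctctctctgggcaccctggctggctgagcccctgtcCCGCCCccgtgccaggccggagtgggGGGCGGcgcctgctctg
The window held 2 such motifs, beginning 43 and 17 bases before the start, and no TAATCC. On either strand, GGGCGG stood in 32.7% of the 32851 windows.

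Aqp1 encodes the water channel of the fluid-facing membrane of the choroid plexus. Its level was 10.8, 0.289 and 1.4996 CPM in brains 1 to 3 and 20.3, 46.7, 31.4, 12.2 and 28.7 CPM in tumours 1 to 5. All 5 tumours lay above all 3 brains, with tumour 4 close to brain 1, and brain 2 rested on 2 fragments. Aqp1 rose in glioblastoma with a log2 fold change of 2.75 ± 0.91 (SE) and an edgeR adjusted p of 0.0234. Without brain 1 the change was 4.92 (95% interval 3.06 to 6.78, edgeR adjusted p = 0.00128), and without brain 3 it was 2.34 with an edgeR adjusted p of 0.0833. Endothelial markers were also higher in the tumours, where 11 of 14 rose and the summed level was 525 to 941 CPM against 238 to 254 CPM in the brains. Red blood cell markers summed to between 13.01 and 73.3 CPM in the tumours and to 43.1, 17.0 and 10.2 CPM in brains 1 to 3. Of these, 1 of 5 tested genes was lower and none higher. Over all genes tested, 37.1% were called higher and 33.9% lower. The part of either list in the Aqp1 result was not tested. The region before the Aqp1 start is shown because Aqp1 was the one gene of the 7 called higher, and lies at chr6:55336049-55336298 on the plus strand (RefSeq, GRCm38.p6, 5′ to 3′), with GGGCGG in capitals.
Aqp1: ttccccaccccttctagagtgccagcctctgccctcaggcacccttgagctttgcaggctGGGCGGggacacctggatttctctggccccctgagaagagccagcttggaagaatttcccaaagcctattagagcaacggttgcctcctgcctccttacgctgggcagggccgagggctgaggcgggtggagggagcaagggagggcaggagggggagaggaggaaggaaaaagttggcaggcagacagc
It held 1 GGGCGG, beginning 190 bases before the start, and no TAATCC. The RefSeq promoter table matched 3 of the 7 genes, Kl, Otx2 and Aqp1, and Ttr, Folr1, Clic6 and Enpp2 are named without a sequence.

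Clic6 encodes a member of the chloride intracellular channel family that is enriched in choroid plexus. Its level was 26.7, 3.75 and 3.14 CPM in brains 1 to 3 and 0.310, 1.80, 3.78, 0.582 and 2.67 CPM in tumours 1 to 5. Tumour 3 was level with brains 2 and 3, and the other tumours lay below them. Clic6 fell by 2.60 ± 0.89 (SE) on the log2 scale with an edgeR adjusted p of 0.0265. Without brain 1 the change was -0.91 (95% interval -2.79 to 0.98, edgeR adjusted p = 0.354), and without tumour 2 it was -2.59 with an edgeR adjusted p of 0.0508.

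Enpp2 encodes autotaxin, the secreted enzyme that makes the lipid mediator lysophosphatidic acid. Its level was 1190, 271 and 318 CPM in brains 1 to 3 and 98.3, 81.0, 67.6, 159 and 56.2 CPM in tumours 1 to 5. Every tumour lay below every brain, and tumour 4 was the highest tumour. Enpp2 fell by 2.68 ± 0.52 (SE) on the log2 scale with an edgeR adjusted p of 0.00169, and by 1.67 (95% interval -2.51 to -0.83, edgeR adjusted p = 0.00499) without brain 1. Mature oligodendrocyte markers, of cells that also make Enpp2, moved the same way. Of 14 such genes 12 were lower, against 33.9% of all genes tested, and none higher, with Mog at -4.37 and Opalin at -4.30 on the log2 scale. Without brain 1, 10 of the 14 were lower, against 29.9% of all genes, with Mog at -4.04 and Opalin at -3.77. Their summed level was 7174, 3700 and 3759 CPM in brains 1 to 3 and 744, 626, 340, 1115 and 320 CPM in tumours 1 to 5, highest in brain 1 and, among the tumours, in tumour 4. The part of these cells in the Enpp2 result was not tested.

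**Figure D3:**
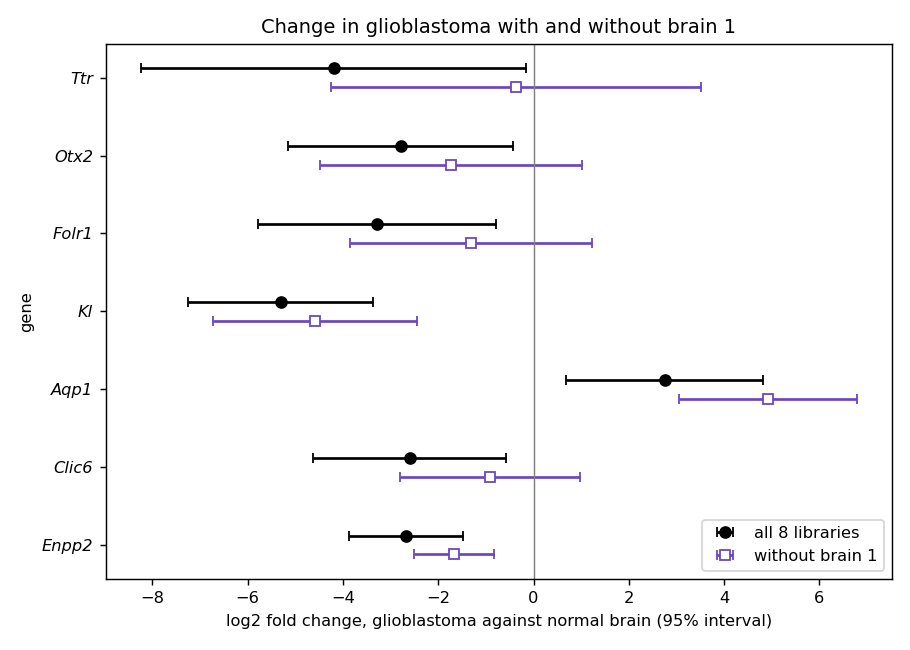
Log2 fold change of glioblastoma against normal brain (horizontal axis) for each of the 7 genes, with 95% intervals, in all 8 libraries (filled circles) and without brain 1 (open squares). Without brain 1, the interval stays below 0 for Kl and Enpp2 and above 0 for Aqp1, and it spans 0 for Ttr, Otx2, Folr1 and Clic6.

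The tumours differed among themselves in these genes. Tumour 3 had the highest tumour level of Ttr, Otx2, Kl and Clic6, while Folr1 and Aqp1 were highest in tumour 2 and Enpp2 in tumour 4. Tumour 4 had no fragment of Otx2 or Folr1 and the lowest tumour level of Kl and Aqp1. For Kl this place rested on 2 fragments, against 1 each in tumours 1 and 2, and the intervals for counting error overlapped. Ependymal cell markers, cilia genes of the cells that line the ventricles, summed to 52.4 CPM in tumour 3 and 30.7 CPM in tumour 2, and to between 14.1 and 21.8 CPM in tumours 1, 4 and 5. The cilia motor gene Dnah11 alone gave 26.6 CPM of the sum in tumour 3, and 0.465 to 1.98 CPM in the other tumours. Without it the sums were 25.8 CPM in tumour 3, 28.7 in tumour 2 and 13.2 to 21.0 in the others. In brains 1 to 3 they summed to 63.3, 58.3 and 32.7 CPM. Of 8 ependymal markers tested, 3 were lower in glioblastoma and 1 was higher, beside 33.9% and 37.1% of all genes tested. Ccdc153 stood at -3.89, Hydin at -3.51 and Mlf1 at 0.88 on the log2 scale. Without brain 1, 3 of 9 were lower and none higher, and Mlf1 (0.95, edgeR adjusted p = 0.0725) was not called. In that fit 29.9% of all genes were lower and 32.5% higher. With no filter on low counts, 6 of 12 markers were lower and 1 higher, beside 27.2% and 29.9% of all genes. With neither the filter nor brain 1, 3 of 12 were lower and none higher, beside 24.0% and 25.9%. The part of ependymal cells in the differences between tumours was not tested.

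Levels of different genes were compared per length, in FPKM (fragments scaled by transcript length and library total). The summed FPKM of the 7 genes was 1624, 108 and 137 in brains 1 to 3 and 37.1, 98.7, 97.7, 50.5 and 28.4 in tumours 1 to 5. Ttr made up 76.8% of that sum in brain 1, where it was the most abundant of the 7, and 20.7% and 28.9% in brains 2 and 3. Enpp2 led in brains 2 and 3 with 72.9% and 67.2% of the sum, and took 21.1% in brain 1. Among the tumours, Ttr led in tumours 2 and 3 with 55.9% and 65.3%, and Enpp2 led in tumours 1, 4 and 5 with 76.1%, 88.9% and 55.9%. The ratio of Ttr to Enpp2 was thus on the same side in brain 1 and tumours 2 and 3, and on the other side in the remaining 5 libraries.

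Averaged over all 3 brains, the order by FPKM was Ttr (437 ± 703, SD, n = 3), Enpp2 (171 ± 149), Kl (4.66 ± 3.17), Folr1 (4.66 ± 5.99), Clic6 (2.99 ± 3.58), Otx2 (1.59 ± 1.40) and Aqp1 (1.55 ± 2.12). Over brains 2 and 3 alone the order of mean FPKM was Enpp2 (85.2), Ttr (30.9), Kl (2.88), Folr1 (1.20), Clic6 (0.923), Otx2 (0.791) and Aqp1 (0.332), so that the first place of Ttr came from brain 1. Over all 3, Ttr and Enpp2 overlapped between brains, as did the 5 lower genes among themselves, while Enpp2, at 78.3 FPKM or more, lay above every value of Folr1, at 11.6 or less. In the tumours the order was Enpp2 (26.5 ± 11.3 FPKM, SD, n = 5), Ttr (24.3 ± 32.2), Aqp1 (10.3 ± 4.94), Folr1 (0.507 ± 0.494), Clic6 (0.486 ± 0.384), Otx2 (0.242 ± 0.275) and Kl (0.120 ± 0.177). Aqp1 was last of the 7 in brains 2 and 3 but stood above Otx2 in brain 1 (3.99 against 3.19 FPKM). It stood below Enpp2 alone in tumours 1, 4 and 5 and below Ttr and Enpp2 in tumours 2 and 3, and its lowest tumour, at 4.42 FPKM, lay above the highest Folr1 value of 1.22.

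**Figure D4:**
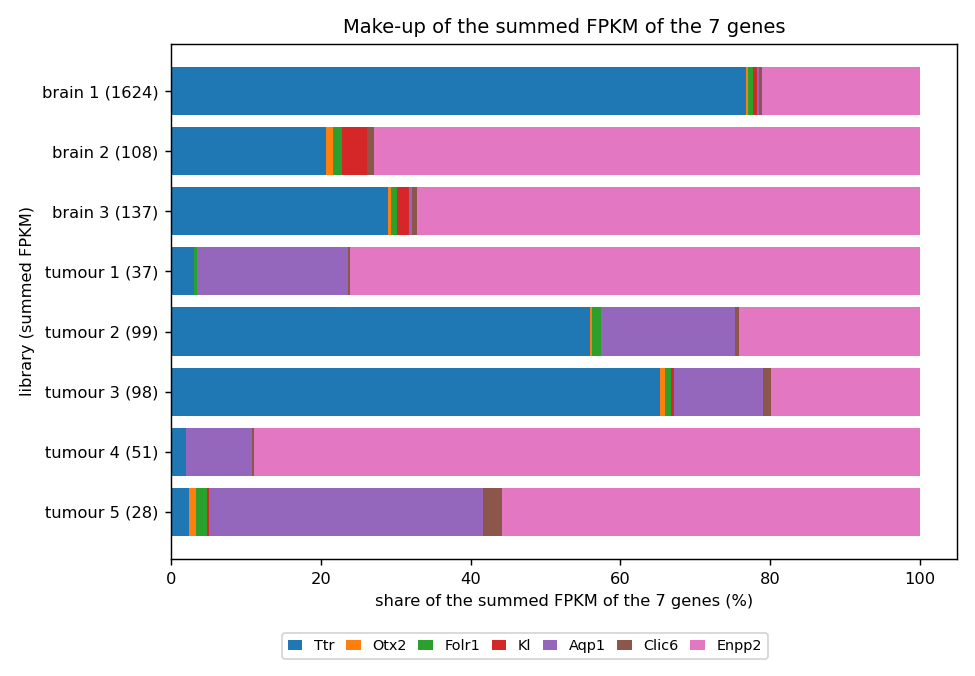
Share of the summed FPKM of the 7 genes (horizontal axis, percent) taken by each gene in each library, with the sum itself in parentheses. Ttr takes 76.8% in brain 1, 55.9% in tumour 2 and 65.3% in tumour 3, Enpp2 takes most of the other bars, and Aqp1 is visible in the tumours.

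Among the 25 further choroid plexus genes, 16 passed the filter on low counts. Of these, 3 were higher and 3 lower in glioblastoma, with a median log2 fold change of -0.71. Of all 14641 genes tested, 37.1% were higher and 33.9% lower. The collagen gene Col8a1 (3.47), the oxidoreductase gene Steap1 (4.95) and Igfbp2 (3.38), an insulin-like growth factor binding protein, rose on the log2 scale. Htr2c (-5.47), the carbonic anhydrase gene Car12 (-3.11) and the sulfate transporter gene Slc13a4 (-2.94) fell. The same numbers of the list were called without brain 1, with a median of -0.05 and Steap1 at 6.99 and Col8a1 at 4.15. In that fit 32.5% of all genes were higher and 29.9% lower. The filter removed 9 of the 25, and among them were genes raised in brain 1. Without the filter 25 were tested and 8 were lower, 3 higher, where 27.2% of 19157 genes were lower and 29.9% higher. The added falls were Tmem72 (-5.14), Kcne2 (-4.73), Kcnj13 (-4.46), Slc4a5 (-4.26) and Sostdc1 (-2.40). With neither the filter nor brain 1, 3 were lower and 3 higher, where 24.0% of 19060 genes were lower and 25.9% higher. The summed level of the list was 316, 153 and 233 CPM in brains 1 to 3 and 269 to 925 CPM in the tumours, and Igfbp2 alone reached 768 CPM in tumour 4.

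**Figure D5:**
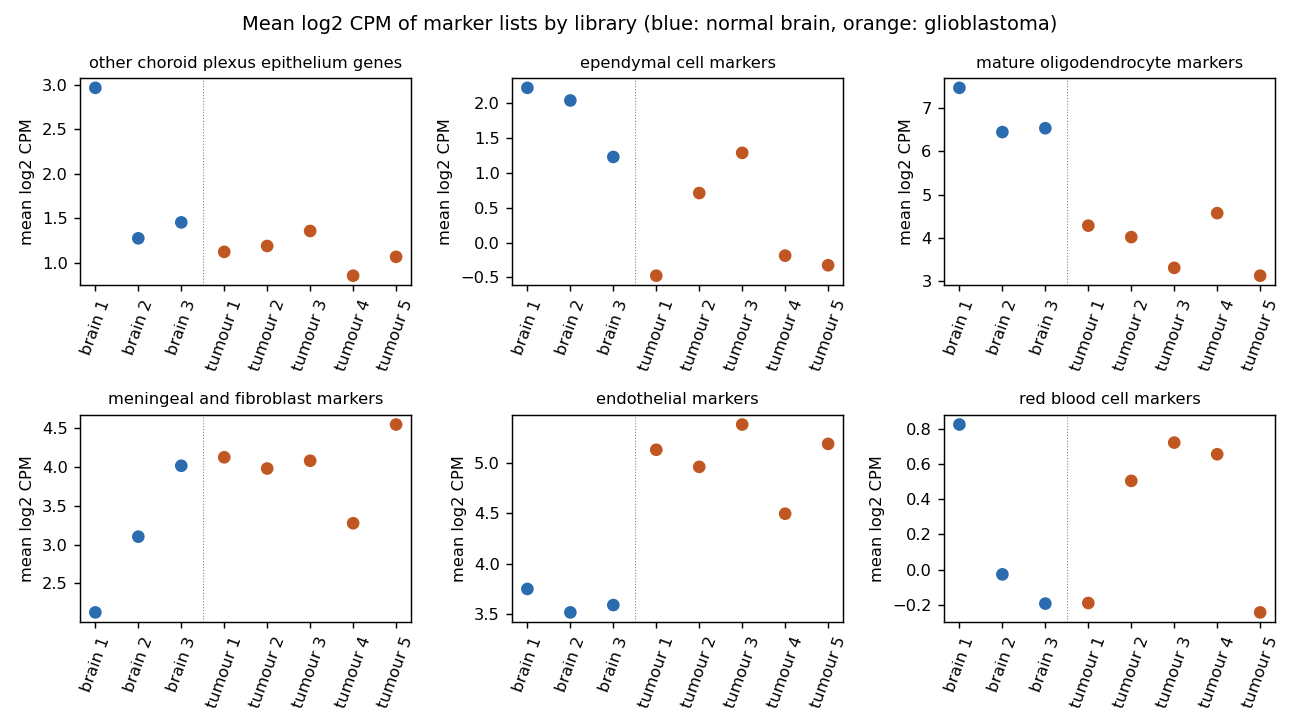
Mean log2 CPM (vertical axes, each with its own range) of 6 lists of marker genes in each brain (blue) and tumour (orange). The further choroid plexus genes stand at 2.97 in brain 1 and at 1.46 or less in the other 7 libraries, oligodendrocyte markers are also highest in brain 1 (7.46), and endothelial markers are higher in every tumour than in any brain.

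Genes of the pathways in which the 7 genes act were described in the same way. For folate uptake and use, 8 of 12 tested genes rose and none fell (median log2 fold change 1.97), with the macrophage folate receptor gene Folr2 at 3.73 and the hydrolase gene Ggh at 3.44, and without brain 1 7 rose. Of 12 tested genes of thyroid hormone and retinol transport and response, 3 rose and 6 fell (median -1.25). The thyroid hormone receptor gene Thrb fell by 4.05 and the retinol-binding protein gene Rbp4 by 3.91 on the log2 scale, and the organic anion transporter gene Slco1a5 rose by 4.85. Without brain 1, 2 of 13 rose and 7 fell, with Slco1a5 at 5.90. Of 12 genes related to autotaxin and lysophosphatidic acid, 7 rose and 4 fell (median 1.58). The lipid phosphatase gene Plpp2 (4.14) and Enpp3 (3.76) rose, and Enpp6 (-2.23), an enzyme of oligodendrocytes, fell. Without brain 1, 2 of these 12 fell, and Enpp6 (-1.57, edgeR adjusted p = 0.0652) was not called. All 4 tested genes of klotho and endocrine FGF signalling were called, the vitamin D receptor gene Vdr (4.17) and Fgfr1 (1.60) among those that rose, with 2 that fell, including Fgfr3 (-2.37). The same numbers were called without brain 1, with Vdr at 5.43. These genes moved in both directions, apart from those of folate. Over all 14641 genes tested, 37.1% were called higher and 33.9% lower. Without brain 1 the shares were 32.5% and 29.9% of 14924. Calls in both directions are thus not particular to these lists or to those that follow.

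Of 4 tested aquaporins other than Aqp1, 2 rose and 2 fell (median 0.57). Aqp9 rose by 2.17 and Aqp11 fell by 3.01 on the log2 scale, and Aqp3 had 0 fragments in the brains and 1.22 to 4.61 CPM in the tumours. Of 3 other genes of the chloride intracellular channel family, Clic1 (6.13) and Clic4 (2.27) rose and the other was not called. Among Otx factors and their partners, Lhx2 (-2.29) and Meis2 (-2.15) fell, Pax6 (2.12) rose and the fourth tested gene was not called, and without brain 1 none rose (Pax6 2.02, edgeR adjusted p = 0.0555). Of 15 genes of cerebrospinal fluid ion transport, 4 rose and 10 fell (median -1.46), with the bicarbonate transporter gene Slc4a10 at -5.00, the sodium pump subunit gene Atp1b1 at -4.08 and the cotransporter gene Slc12a7 at 3.92. Neurons and glia also use many of these ion transporters.

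Lists of other cell types and regions were read beside these. All 10 macrophage markers rose, as did 7 of 12 tested meningeal and fibroblast markers, of which 4 fell. Without brain 1, 5 of 13 meningeal and fibroblast markers rose and 5 fell. With all libraries, Col3a1 (7.56) and Col1a2 (4.88) rose on the log2 scale, and Myoc had 1.86 to 21.3 CPM in the brains and 0 fragments in every tumour. Of the markers of cortex and hippocampus 11 of 12 fell, of striatum 6 of 8, of thalamus 3 of 9 and of cerebellum 4 of 6, with none higher. Without brain 1, 5 of the 8 striatum markers fell, and 1 of the 9 thalamus markers, the kinase gene Prkcd (2.12, edgeR adjusted p = 0.00882), was higher beside 3 that fell. Of the hypothalamus list 1 gene was tested and was higher, and of midbrain and hindbrain 1 of 2 tested was lower. The part of these cells and regions in the results for the 7 genes was not tested.

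The profile of Ttr, Otx2, Folr1, Kl and Clic6, averaged as centred log2 CPM over the 8 libraries, was compared with that of every other gene by the root mean square difference. The median difference over 14919 genes was 2.13. Closest were Kcnj13 (0.63), Dynlrb2 (0.66), Col8a2 (0.72), Kcne2 (0.75), Tmem215 (0.79), Fam216b (0.79), Drc7 (0.80), Cdhr3 (0.81), Cfap206 (0.89) and Foxp2 (0.89). Kcnj13, for example, stood at 14.2, 1.30 and 3.14 CPM in brains 1 to 3 and at 0.155, 0.361, 1.01, 0 and 0 CPM in the tumours. Closest to Enpp2, where the median difference was 1.48, were Rab37 (0.28), Pip5kl1 (0.35), Tmem88b (0.36), Kcnab3 (0.36) and the myelin regulatory factor gene Myrf (0.36). Closest to Aqp1, where the median was 2.15, were Ube2t (0.59), Slco1a5 (0.76), Cdt1 (0.77), Cenph (0.77) and Siglecf (0.77). The 3 sets of nearest genes held no gene in common. With so few genes per set, and with Aqp1 higher and Enpp2 lower in glioblastoma, little overlap was possible. Nothing is drawn from its absence. These likenesses are descriptions over 8 libraries, of which brain 1 is one.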

How the data were processed

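RNA from 3 normal brains and 5 glioblastomas was column-purified with DNase treatment and made into TruSeq libraries, per the labels' protocols. The submitters' processing notes name STAR 2.3.0e, Cuffdiff 2.1.1 and the mm9 build, without roles or settings, and the sources used here do not give the strand handling. In 1 table the authors deposited estimated counts of fragments and FPKM values for 30967 RefSeq accessions in each library, per the file headers. The authors scaled the deposited FPKM values per library and transcript length.

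Symbols came from RefSeq for 30474 accessions and from GENCODE for 178. The other 315, with 0.507% of fragments, kept their identifiers. The deposited estimated counts were summed per gene and rounded, since 33.2% of accession values but 97.8% of gene sums were whole within 0.01 in genes with more than 1 accession. None of the 7 genes was among the 608 that shared fragments with another gene. Groups were taken from the tissue labels and numbered in accession order. Every pair of libraries of a group differed by more than sampling noise, with a lowest chi-square of 5.17 per degree of freedom.

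The test was edgeR 4.0.16 (R 4.3.3) with TMM factors, its default filter, the robust quasi-likelihood F test and Benjamini-Hochberg adjustment over 14641 genes, at 0.05. Log2 CPM used a prior count of 2. Confidence intervals are at 95%, and exact intervals and limits of 3 fragments cover counting error only. Tested on simulated data for this comparison (14339 genes after the filter), it recovered 74.0% of 4-fold and 18.6% of 2-fold changes, and 4.17% of its calls were false.

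The named genes were the 7, from each list the 2 called genes that changed most in its commoner direction and 1 in the opposite one, and the nearest genes by profile. Others were named after their values were seen, among them those raised in brain 1. The 7 genes, the lists and the tests were chosen with earlier results of these data known. Alternatives were RLE and upper quartile factors, library size, DESeq2 1.42.0, no filter, 5 CPM in 3 samples, limma 3.58.1 on log2(FPKM + 1) and log2(FPKM + 0.1), and each library left out. Leaving out both brain 1 and the filter was added after seeing the data. Promoter sequences are from RefSeq, GRCm38.p6. 1 listed gene is not reported here.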

Additional observations from a re-analysis of the deposited data

Results flagged for a closer look

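Kl in tumour 3 stood at 2.27 CPM, far from the other 4 tumours, which lay between 0.116 and 0.404 CPM. Its gap to the nearest tumour was 0.866 of the whole range of the 5 tumours, above the critical value of 0.71. Chance alone sets off this rule in about 1 in 20 groups. Tumour 3 was still below every brain.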

How the results depend on the processing

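No paired analysis was possible because the labels give no replicate numbers that the groups share, and numbers in accession order only name the samples. None of the 7 genes changed direction under any alternative that gave a value. Among the further choroid plexus genes, F5 turned from -0.50 to 1.57 and Ecrg4 from -1.41 to 0.23 without brain 1, and with no filter Cldn2 turned from -3.42 to 0.25, and none of these 3 was called in either fit. The median of the klotho and endocrine FGF list turned from -0.35 to 0.79 without the filter. That of the hypothalamus list turned from 4.92, with 1 gene tested, to -1.31, with 7 tested. The number of the 7 genes called lower, 5 with all libraries, was 2 with at least 5 CPM in 3 samples (where Folr1, Otx2 and Clic6 were not tested), 3 with limma on log2(FPKM + 1), 2 without both brain 1 and the filter, and 2 to 5 with each library left out. The number called higher was 0 to 1 with each library left out, and 0 without brain 3. With limma on log2(FPKM + 1), Clic6 (-1.10) and Folr1 (-1.45) were not called, nor was Clic6 (-2.05) on log2(FPKM + 0.1). Without both brain 1 and the filter, Clic6 (-0.88), Folr1 (-1.27) and Otx2 (-1.70) were not called. With each library left out, log2 fold changes ran from 2.19 to 4.92 for Aqp1, -3.04 to -0.91 for Clic6, -3.81 to -1.31 for Folr1 and -3.18 to -1.73 for Otx2. Otx2 had no value without tumour 3, where it failed the filter, and DESeq2 gave no adjusted p for Ttr and Folr1. Beyond the removal of samples or genes, the cause of these changes was not tested. Depth limits Otx2, Folr1 and Kl most, which rest on 18 fragments or fewer in each tumour.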

Other observations

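Some genes outside the lists of choroid plexus genes were also raised in brain 1, and were chosen after their values were seen. Place 1, above Ttr, was held by a transcript without a gene symbol, with 115, 0 and 1 fragments in brains 1 to 3. In tumours 1 to 5 it had 42, 37, 131, 251 and 1. Gm10635 (ratio 24.9) and Pisd-ps3 (5.23) were also raised, and the genes below are only some of those outside the lists. The photoreceptor and epithelial transporter gene Abca4 stood at 16.9, 2.31 and 4.09 CPM in brains 1 to 3 and at 5.05 to 7.45 CPM in the tumours. Rspo1, a secreted activator of Wnt signalling, stood at 6.60, 2.31 and 0.545 CPM in the brains and at 0 to 0.699 CPM in the tumours. Sh3rf2 stood at 5.07, 1.30 and 0.545 CPM in the brains and had no fragment in any tumour. Krt18, a keratin of simple epithelia, stood at 3.55, 0.577 and 0.273 CPM in the brains and at 14.0, 82.8, 41.5, 1.05 and 45.8 CPM in tumours 1 to 5, with tumour 4 below brain 1. It was higher in glioblastoma with a log2 fold change of 4.70 and an edgeR adjusted p of 0.0148, and without brain 1 with 6.40 and an edgeR adjusted p of 0.0182.

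Among the further choroid plexus genes, F5 and Prlr kept fragments in the tumours. F5 stood at 18.1, 1.30 and 2.04 CPM in the brains and at 2.64, 9.38, 5.17, 2.85 and 5.17 CPM in tumours 1 to 5, every tumour above brains 2 and 3. Prlr stood at 29.3, 3.61 and 7.63 CPM in the brains and at 7.76, 9.20, 3.40, 0.408 and 6.38 CPM in the tumours. Neither passed the test with all libraries, where F5 had a log2 fold change of -0.50 (edgeR adjusted p = 0.596) and Prlr one of -1.34 (edgeR adjusted p = 0.197). Without brain 1 the direction of F5 turned, to 1.57 (edgeR adjusted p = 0.0543), and Prlr was at -0.08 (edgeR adjusted p = 0.946).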
